A study of Mus musculus with 8 samples.

Results

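RNA-seq was used to compare A1 spermatogonia, sampled 24 h after a single dose of retinoic acid (RA), with the undifferentiated Aal spermatogonia that precede them. The comparison took all 3 A1 and both Aal libraries, 5 of the 8 libraries of the series, and the 4632 of 5736 genes in the table that reached 1 FPKM (fragments per kilobase of exon, scaled to the reads of the library) in at least 2 of these 5 libraries. Germ cells were sorted by FACS on EGFP expressed from the *Uchl1* promoter in CD1:Uchl1-eGFP mice, and each preparation pooled the testes of at least 5 pups. Every group received bis-(dichloroacetyl)-diamine, an inhibitor of RA synthesis, orally at 100 µg/g from postnatal day (P) 1 to P10, which holds spermatogonia undifferentiated. A1 mice then received 10 µl of RA at 10 µg/µl on P11, whereas Aal cells were taken at the block, so that the response to RA and the 24 h of further growth cannot be told apart. Spermatogonial stem cells are known to be insensitive to RA and to express the transgene, so that both sorts could hold them.

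RA enters the cell from serum or neighbouring Sertoli cells, is carried by cellular retinoid-binding proteins and cleared by CYP26 hydroxylases, and acts through nuclear receptors that bind paired short sites in DNA. In the testis it moves undifferentiated spermatogonia, which depend on GDNF from Sertoli cells acting through the receptor RET, into a fixed series of divisions that ends in meiosis. The libraries were set against that background by function, using lists of genes written from general knowledge.

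Depth, recovered from the FPKM steps, lay between 18276164 and 27316451 reads per library. Between 34.0% and 34.4% of these fell in the table, and 636 of the 5736 genes in the table had fewer than 10 reads in at least 1 of the 5 libraries. The labelled cell type was checked on its markers. *Uchl1* lay at 4493 and 5227 FPKM in Aal and 7269.9, 5058 and 4048 FPKM in A1, with overlapping groups (limma adjusted p = 0.757), and 11 of 22 tested markers of undifferentiated spermatogonia were lower in A1, a list whose direction the group labels already imply (5 without Aal-2). The library A1-3 stood apart. Summed over the 21 Sertoli cell markers in the table, expression was 104.43 and 84.37 FPKM in Aal-1 and Aal-2, 134.27 and 149.57 FPKM in A1-1 and A1-2, and 551.03 FPKM in A1-3. The 11 peritubular myoid and stromal markers summed to between 28.86 and 35.09 FPKM in the other libraries and to 152.91 FPKM in A1-3. Of all 62 somatic markers in the table, 32 were more than 3 times higher in A1-3 than in either other A1 library, and 0 were at 0 in any library. *Cldn11*, a tight junction protein of Sertoli cells, was at 2.15 and 1.23 FPKM in Aal and 3.43, 3.27 and 22.04 FPKM in A1. Leydig cell (53.69 to 104.37 FPKM over 11 markers), macrophage (6.33 to 19.16 FPKM over 9) and endothelial sums (38.49 to 52.11 FPKM over 10) moved less. A count below is also given without A1-3 where it moves by over 1.5 times.

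A gene was called when its limma adjusted p, by the Benjamini-Hochberg method, was at most 0.01 and its log2 fold change, on the log2(FPKM + 1) scale, was above 1 in size. By this rule 424 genes (9.15%) passed, of which A1 was higher for 194 (4.19% of those tested) and lower for 230 (4.97%). The median log2 fold change of all genes was 0.034. At any fold, 603 genes (13.0%) passed the p threshold as higher and 649 (14.0%) as lower. The libraries of the groups did not overlap for 64.0% of all genes tested. Without A1-3, 443 genes (9.56%) were called, and 392 of the 424 calls remained. The 32 that were lost all kept a limma adjusted p of at most 0.0038 and missed only the fold threshold, with log2 fold changes no smaller than 0.83 in size. Aal has only 2 libraries, and calls were lost when either was left out. Such a fit has no spread within Aal, so the p-values and counts given below without Aal-1 or Aal-2 rest on the spread of the A1 libraries alone. The libraries of the groups did not overlap for any of the 424 called genes, so no call could change direction when a library was left out. Reads of genes that overlap another annotated gene on mm9 are uncertain, since the strand setting of the counting is not given in the sources used here, and of the genes named below these are *Arpc1b*, *Atg9b*, *Cacna1a*, *Ccna2*, *Cdc20*, *Cdc45*, *Ckap2l*, *Coro2b*, *Cygb*, *Dll1*, *Dmc1*, *Dnmt3b*, *Dscaml1*, *E2f8*, *Eef2*, *Ephb4*, *Esr1*, *Fabp3*, *Fli1*, *Foxm1*, *Gabarapl1*, *Gbe1*, *H2afy2*, *Hoxb2*, *Hoxb3*, *Hoxb4*, *Kcnip3*, *Lhfpl2*, *Mbnl2*, *Nefm*, *Nr6a1*, *Pcdh1*, *Pip5k1b*, *Ppp1r1b*, *Prc1*, *Psmc5*, *Pxt1*, *Rb1*, *Rin2*, *Rpl17*, *Rpl35*, *Shank2*, *Slc27a2*, *Slc2a3*, *Syce2*, *Tgm2*, *Top2a*, *Trpm7*, *Tubb3*, *Txnip*, *Ube2c*, *Uchl1* and *Zfpm1*. No mm9 position was matched for *Glis3*, *Pcnx2*, *Pkm*, *Sowahc*, *Trf* and *Tubb4b*, which were not checked for overlap. These are bulk samples, in which fewer cells of a type and less RNA per cell cannot be told apart.

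The largest rises were in genes of low level in Aal. *Foxn4*, which encodes a forkhead transcription factor, was at 0.293 and 0.577 FPKM in Aal and 13.6, 21.95 and 20.9 FPKM in A1 (log2 fold change 3.77, SE 0.21, limma adjusted p = 0.000127). *Tbx1*, a T-box factor of pharyngeal development, was at 1.42 and 0.388 FPKM in Aal and 11.8, 19.7 and 17.8 FPKM in A1 (log2 fold change 3.22, SE 0.28, limma adjusted p = 0.000287). *Spp1*, which encodes the secreted phosphoprotein osteopontin, was at 0.674 and 0.504 FPKM in Aal and 6.38, 12.5 and 15.4 FPKM in A1 (log2 fold change 2.89, SE 0.31, limma adjusted p = 0.000484). The A1 libraries were above both Aal libraries for each, with A1-1 the lowest of the 3 in these cases. *Fbxo2*, a substrate adaptor of ubiquitin ligases that binds glycoproteins, rose with a log2 fold change of 2.39, and *Cited1*, a transcriptional cofactor on the X chromosome, with 2.35. *Gadd45b*, a stress-induced gene with a proposed part in DNA demethylation, was at 3.01 and 1.64 FPKM in Aal and 11.5, 15.5 and 12.7 FPKM in A1 (log2 fold change 2.12, SE 0.20, limma adjusted p = 0.000336). Among the other large rises were those of *Ppp1r1b* (2.07), which encodes an inhibitor of protein phosphatase 1, *Slc27a2* (2.04), which encodes a very long chain acyl-CoA synthetase, *Tead3* (2.00), a DNA-binding partner of YAP, complement component *C3* (1.96), *Nobox* (1.92), a homeobox gene known from the oocyte, and *Blvrb* (1.87), a biliverdin reductase. Without Aal-2 the adjusted p of *Spp1* was 0.0133 and that of *Tead3* just over 0.01, with log2 fold changes of 2.81 and 1.85.

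The largest falls included genes known from neurons, endosomes and transcriptional repression. *Scn10a*, a voltage-gated sodium channel known from sensory neurons, was at 8.22 and 13.995 FPKM in Aal and 1.05, 0.582 and 0.784 FPKM in A1 (log2 fold change -2.71, SE 0.23, limma adjusted p = 0.000258). *Rin2*, a guanine nucleotide exchange factor for the endosomal GTPase RAB5, was at 35.9 and 40.2 FPKM in Aal and 5.24, 5.33 and 5.35 FPKM in A1 (log2 fold change -2.63, SE 0.09, limma adjusted p = 5.07e-05), with the A1 libraries close together. *Lhfpl2*, a tetraspan membrane protein, was at 29.5 and 28.9 FPKM in Aal and 5.61, 4.83 and 4.67 FPKM in A1 (log2 fold change -2.33, SE 0.10, limma adjusted p = 6.03e-05). *Ccdc141*, a coiled-coil protein linked to neuronal migration, was at 27.2 and 27.7 FPKM in Aal and 6.40, 5.17 and 5.32 FPKM in A1 (log2 fold change -2.10, SE 0.11, limma adjusted p = 0.00011). *Pxt1*, a testis gene with cell death activity, *Tmprss5*, a membrane serine protease, *Tgif1*, a repressor that limits RA and TGF-beta signalling, and *Fli1*, an ETS factor, fell, with log2 fold changes of -2.31, -2.30, -2.18 and -2.06. *Barhl2*, a neural homeobox gene, was at 10.4 and 10.8 FPKM in Aal and 3.74, 1.27 and 1.02 FPKM in A1 (log2 fold change -2.05, SE 0.34, limma adjusted p = 0.00289), and its adjusted p was 0.0338 and 0.0413 without Aal-1 and Aal-2. *Trf*, transferrin, is on the Sertoli list, in which 13 of 15 tested genes were above 0, and was at 11.03 and 13.3 FPKM in Aal and 2.01, 1.19 and 2.75 FPKM in A1 (log2 fold change -2.17, and -2.35 without A1-3). Without Aal-2 its adjusted p was 0.0121.

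**Figure D1:**
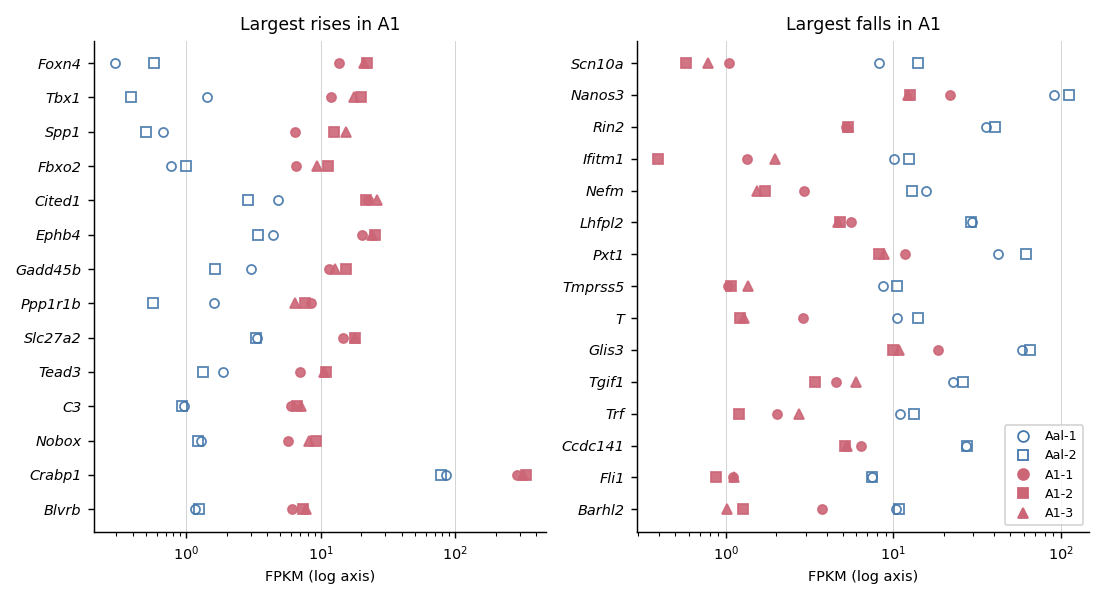
FPKM (log axis) of the 14 largest rises shown and the 15 largest falls, 1 row per gene, with open blue symbols for the 2 Aal and filled red symbols for the 3 A1 libraries. For every gene plotted all A1 symbols lie on 1 side of both Aal symbols, as the choice of genes required, and the triangles (A1-3) fall among or beside the other A1 libraries.

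Several genes that bind and break down RA rose in A1. Of 10 tested genes of RA signalling and metabolism, 5 were called, all higher, with a median log2 fold change of 0.80. Of all genes tested, 4.19% were called higher. The list did not rise as a whole, since 7 of the 10 were above 0 and 3 below 0. The lowest log2 fold change was -0.6, and 0 genes of the list passed the p threshold as lower. *Crabp1*, which encodes a cytosolic RA-binding protein, was at 85.7 and 77.8 FPKM in Aal and 286, 333 and 317 FPKM in A1 (log2 fold change 1.92, SE 0.09, limma adjusted p = 6.03e-05). *Crabp2*, whose product delivers RA to its nuclear receptors, was at 1.98 and 1.73 FPKM in Aal and 6.35, 9.56 and 9.06 FPKM in A1 (log2 fold change 1.69, SE 0.18, limma adjusted p = 0.000441). *Cyp26a1*, the RA hydroxylase, was at 0.465 and 0.201 FPKM in Aal and 3.52, 4.09 and 4.67 FPKM in A1 (log2 fold change 1.94, SE 0.16, limma adjusted p = 0.000255). The A1 libraries lay close together for each and above both Aal libraries, although *Cyp26a1* rests on as few as 9 reads in a library. *Tgm2*, tissue transglutaminase and a classical RA-induced gene, was at 0.688 and 0.718 FPKM in Aal and 2.06, 2.71 and 3.67 FPKM in A1 (log2 fold change 1.14, SE 0.19, limma adjusted p = 0.00283). It was highest in A1-3, and its log2 fold change without A1-3 was 0.98 (limma adjusted p = 0.000782), under the fold threshold. *Dhrs4*, a retinal reductase, was not called and had a log2 fold change of 0.46 (limma adjusted p = 0.0225). The list kept 4 calls without A1-3, 4 without Aal-1 and 3 without Aal-2, where *Crabp2* had an adjusted p of 0.0111 and *Tgm2* of 0.0344 (0.0317 without Aal-1).

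The promoter of *Cyp26a1* is printed because it holds letters of the kind of site through which RA is known to act. It reads 5′ to 3′ on the gene's strand. In the 110 bases upstream of its RefSeq start (GRCm38.p6, chr19:37697698-37697807, plus strand), the capitals mark a pair of RA receptor sites, read on the opposite strand, that are 5 bases apart and begin 32 bases before the start.

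Cyp26a1: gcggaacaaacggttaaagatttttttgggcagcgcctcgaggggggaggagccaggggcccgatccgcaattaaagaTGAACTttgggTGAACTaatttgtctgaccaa

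An exact pair of AGGTCA sites 5 bases apart was in 0 of the 4576 promoters of tested genes (3 of all 32851 RefSeq promoters of the same 300 bases). A looser search, made after these letters were seen, also allowed GGGTCA in place of each site, likewise AGTTCA, and with both changes GGTTCA, on either strand and found such a pair in 32 of all promoters (0.0974%) and in 2 promoters of tested genes. Single AGGTCA sites were in 12.0% of the promoters of tested genes and 16.3% of all promoters. These matches describe letters in the 250 bases before and 50 after a start, both strands included, and a site inside a pair counts as a single site.

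**Figure D2:**
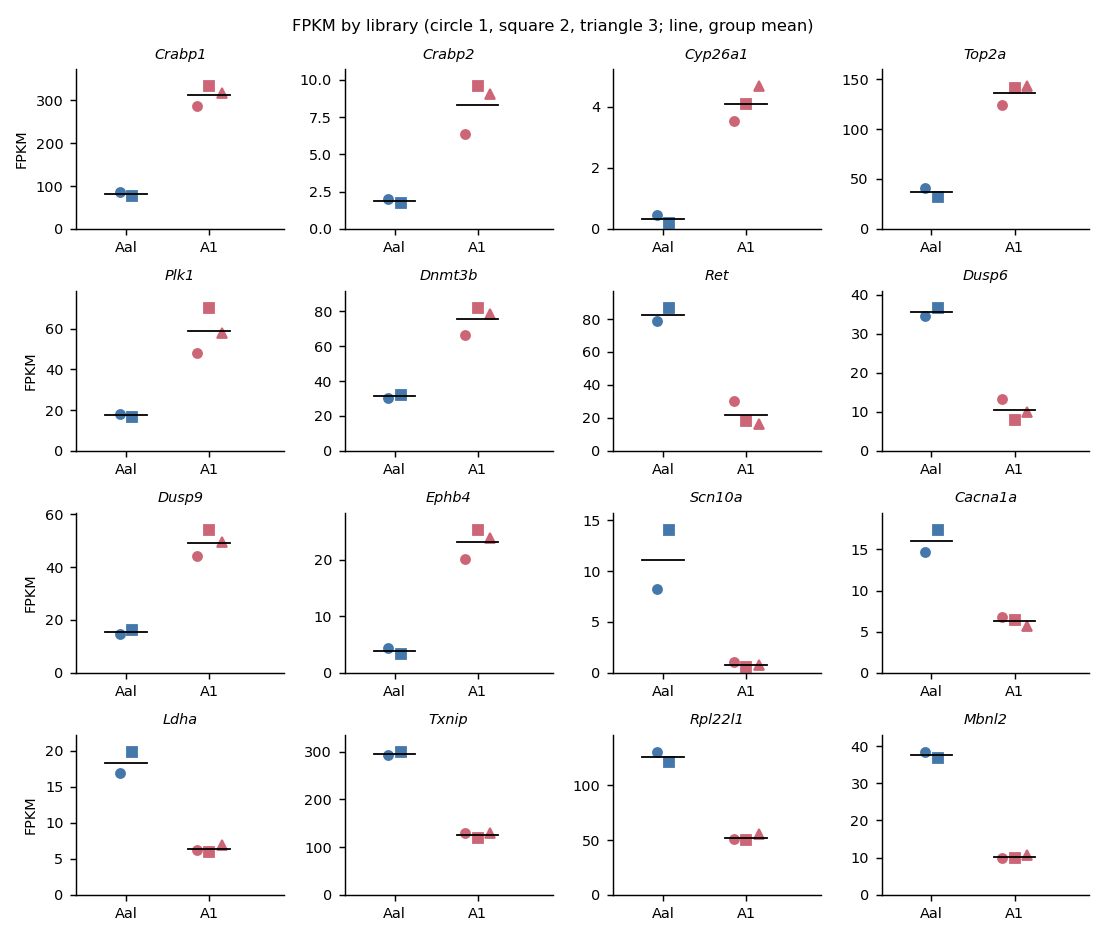
FPKM of 16 genes named in the text, on linear axes from 0, with 1 symbol per library and a line at each group mean. The Aal and A1 symbols do not overlap in any panel. *Crabp1*, *Crabp2*, *Cyp26a1*, *Top2a*, *Plk1*, *Dnmt3b*, *Dusp9* and *Ephb4* are higher in A1 and the other 8 genes lower.

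Genes of cell division were higher in A1 across several lists, with the largest share in mitosis. Of 30 tested genes of the spindle, kinesins and cytokinesis, 15 were called higher and 0 lower, with a median log2 fold change of 1.00. *Plk1*, the kinase that drives mitotic entry and exit, was at 18.1 and 16.7 FPKM in Aal and 48.3, 69.96 and 57.95 FPKM in A1 (log2 fold change 1.68, SE 0.14, limma adjusted p = 0.000266). *Prc1*, which bundles the microtubules of the central spindle, was at 27.9 and 26.7 FPKM in Aal and 67.6, 97.1 and 99.5 FPKM in A1 (log2 fold change 1.63, SE 0.16, limma adjusted p = 0.000359). *Tpx2*, which activates Aurora A on the spindle, had a log2 fold change of 1.44. *Tubb4b*, a beta-tubulin, was at 235 and 217 FPKM in Aal and 581, 657 and 601 FPKM in A1 (log2 fold change 1.43, SE 0.09, limma adjusted p = 0.000136). *Tubb5*, the more usual beta-tubulin of dividing cells, was at 256 and 252 FPKM in Aal and 274, 306 and 302 FPKM in A1 (log2 fold change 0.21, limma adjusted p = 0.0623). The 2 tubulins are close in sequence, so their reads are uncertain. *Ckap2l*, a spindle protein of neural progenitors, rose with a log2 fold change of 1.37. *Incenp* (0.94) and *Tacc3* (0.84) passed the p threshold under the fold threshold. Without A1-3 the count was 14, since *Kif2c*, a microtubule-depolymerising kinesin, moved from 1.05 to 0.99. Without Aal-2 it was 9, with adjusted p values of 0.0103 for *Prc1* and 0.0109 for *Tpx2* and log2 fold changes of 1.60 and 1.37.

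Other mitotic groups moved less evenly. Of 18 genes of the anaphase promoting complex, condensin and cohesin, 4 were called, all higher. *Top2a*, the topoisomerase that untangles sister chromatids, was at 41.4 and 32.3 FPKM in Aal and 124, 141 and 143 FPKM in A1 (log2 fold change 1.86, SE 0.11, limma adjusted p = 0.000136). *Ube2c*, the ubiquitin-conjugating enzyme of the anaphase promoting complex, was at 35.98 and 33.4 FPKM in Aal and 78.1, 107 and 101 FPKM in A1 (log2 fold change 1.42, SE 0.13, limma adjusted p = 0.000315). *Cdc20*, which activates that complex in mitosis, was at 41.03 and 32.8 FPKM in Aal and 77.2, 95.8 and 86.6 FPKM in A1 (log2 fold change 1.21, SE 0.12, limma adjusted p = 0.00037). Among core subunits, *Anapc2* was at 66.4 and 70.6 FPKM in Aal and 73.8, 68.5 and 69.6 FPKM in A1 (limma adjusted p = 0.623) and *Cdc16* had a log2 fold change of 0.11 (limma adjusted p = 0.212). None of the 15 kinetochore and spindle checkpoint genes was called in this limma fit (1 without A1-3), although 13 were above 0, with a median of 0.26, and 5 passed the p threshold, among them *Cenpf* (0.90), *Ttk* (0.80) and *Cenpn* (0.65). The count was 1 without Aal-1 and 1 without A1-3. Of 22 cyclins, CDKs and their regulators, 7 were called, all higher. *Ccna2*, the cyclin of S phase and G2, was at 32.5 and 30.4 FPKM in Aal and 80.8, 98.8 and 102 FPKM in A1 (log2 fold change 1.54, SE 0.10, limma adjusted p = 0.000173). *Foxm1*, the forkhead factor that drives the G2 programme, was at 35.1 and 34.7 FPKM in Aal and 74.4, 83.6 and 76.5 FPKM in A1 (log2 fold change 1.14, SE 0.07, limma adjusted p = 0.000136). *E2f8*, an E2F repressor, was at 4.26 and 3.02 FPKM in Aal and 9.11, 9.77 and 8.91 FPKM in A1 (log2 fold change 1.16, SE 0.14, limma adjusted p = 0.000778). *Rb1*, the retinoblastoma protein that restrains entry into S phase, was at 58.1 and 56.4 FPKM in Aal and 35.99, 38.5 and 40.3 FPKM in A1 (log2 fold change -0.57, SE 0.07, limma adjusted p = 0.000706), under the fold threshold. *Ccna1*, the germ cell A-type cyclin, was at 1.62 and 1.71 FPKM in Aal and 4.37, 6.98 and 5.97 FPKM in A1 (log2 fold change 1.33), with an adjusted p of 0.018 and 0.0199 without Aal-1 and Aal-2. The count of cyclins and regulators was 3 without Aal-2, where *E2f8* was under the fold threshold (0.96).

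Replication genes followed with smaller folds. Of 21 genes of replication origins and forks, 6 were called, all higher, 13 passed the p threshold and 20 were above 0, with a median of 0.72. *Mcm2*, a subunit of the replicative helicase, was at 72.1 and 65.03 FPKM in Aal and 153, 147 and 129 FPKM in A1 (log2 fold change 1.05, SE 0.09, limma adjusted p = 0.00028), and *Mcm4* and *Mcm6* were under the fold threshold at 0.78 and 0.89. *Cdc45*, which completes that helicase, was at 39.6 and 32.2 FPKM in Aal and 82.04, 76.3 and 72.997 FPKM in A1 (log2 fold change 1.09, SE 0.10, limma adjusted p = 0.000287). *Dscc1*, a clamp loader subunit, was at 4.65 and 3.01 FPKM in Aal and 11.5, 10.8 and 9.36 FPKM in A1 (log2 fold change 1.27, SE 0.17, limma adjusted p = 0.00104). The folds lay close to the threshold, and the count was 3 without A1-1, where *Mcm2* was at 0.99, and 1 without Aal-2, where *Mcm2*, *Cdc45* and *Dscc1* were at 0.97, 0.94 and 1.03, with adjusted p values of 0.00727, 0.00658 and 0.0111. Of 30 genes of DNA damage response and repair, 1 was called higher and 1 lower, with a median of 0.02 (3 calls without Aal-1 and 1 without Aal-2). The shares called were 3.33% each way, beside 4.19% higher and 4.97% lower of all genes. The call that was lower was *Neil2*, a glycosylase of base excision repair (-1.24).

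The promoters of mitotic genes are shown for elements that are already known from genes of this class. Genes that peak in G2 and mitosis are known to carry a CHR element, TTTGAA, close to the start, often with CCAAT boxes upstream. Below are the 110 bases before the RefSeq start (GRCm38.p6) of 5 called genes, chosen for holding both and after their letters were seen, 5′ to 3′ on the gene's strand, with both motifs in capitals on either strand (TTCAAA and ATTGG are the opposite-strand readings). *Kif11* and *Kif22*, kinesins with log2 fold changes of 1.31 and 1.01, were named after their values were seen, and *Kif22* was under the fold threshold without A1-2 (0.95) and Aal-2 (0.89). Kif11 is at chr19:37376272-37376381, plus strand and Kif22 at chr7:127042421-127042530, minus strand. Top2a is at chr11:99024190-99024299, minus strand, Cdc20 at chr4:118437344-118437453, minus strand and Ube2c at chr2:164769819-164769928, plus strand.

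Kif11: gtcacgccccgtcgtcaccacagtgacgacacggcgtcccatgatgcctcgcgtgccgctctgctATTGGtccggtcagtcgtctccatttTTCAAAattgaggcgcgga
Kif22: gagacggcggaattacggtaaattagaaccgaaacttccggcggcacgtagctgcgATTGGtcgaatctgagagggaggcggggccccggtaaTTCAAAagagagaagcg
Top2a: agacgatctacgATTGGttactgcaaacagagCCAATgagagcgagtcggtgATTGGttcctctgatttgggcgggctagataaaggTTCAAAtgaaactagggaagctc
Cdc20: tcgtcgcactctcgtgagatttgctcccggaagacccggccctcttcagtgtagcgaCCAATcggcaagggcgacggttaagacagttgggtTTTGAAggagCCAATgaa
Ube2c: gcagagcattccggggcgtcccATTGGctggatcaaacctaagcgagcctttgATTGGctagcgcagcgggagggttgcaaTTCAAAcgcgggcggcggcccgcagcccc

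In each of these the CHR element begins between 17 and 29 bases before the start, with a CCAAT box upstream of it. Of the 15 called spindle genes, 13 had a RefSeq promoter, and TTTGAA was in 11 of their 15 listed promoters (73.3%), against 12.1% of the 4576 promoters of tested genes and 17.9% of all promoters. CCAAT was in 73.3% of the same 15 promoters, against 38.4% and 37.4%. Over the called genes of the spindle, anaphase, cyclin and replication lists together, 26 of 32 had a promoter, and the shares were 62.1% for TTTGAA and 79.3% for CCAAT in 29 promoters. E2F elements, TTTGGCGC and alternatively TTTCCCGC, were in 10.3% of these, against 2.86% of the promoters of tested genes. TTTGAA was in 1 of the 4 promoters of called cyclin genes. Among all genes called higher, TTTGAA was in 19.6% of 209 promoters and CCAAT in 34.0%. Among genes called lower the shares were 13.0% and 35.0% of 223 promoters. Uncalled members of the spindle, anaphase, cyclin and replication lists were not searched separately, so the shares do not bear on which members were called. Promoters were found for 76.5% of tested genes, so these shares describe the genes matched.

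**Figure D3:**
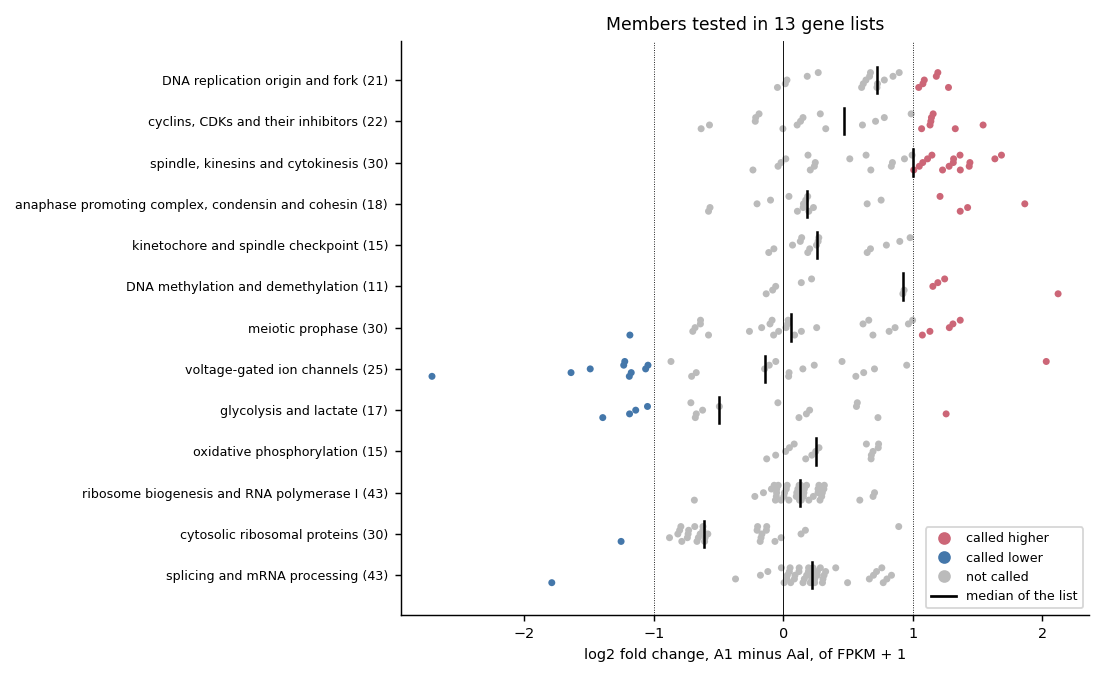
Log2 fold changes (A1 minus Aal, of FPKM + 1) of the tested members of 13 gene lists, 1 point per gene, red for called higher, blue for called lower and grey for not called, with a black bar at each list's median and dotted lines at the fold threshold. The spindle list has its median at 1.00, the kinetochore list at 0.26 and the cytosolic ribosomal proteins at -0.61.

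Among chromatin genes, several of DNA methylation and demethylation were higher in A1. Of 11 tested genes of these functions, 4 were called, all higher (36.4%, beside 4.19% of all genes), with a median of 0.92 and 3 below 0. The largest change was that of *Gadd45b* (2.12), given above with its proposed part in demethylation. *Dnmt3b*, a de novo DNA methyltransferase, was at 30.3 and 31.99 FPKM in Aal and 66.4, 81.6 and 78.5 FPKM in A1 (log2 fold change 1.25, SE 0.09, limma adjusted p = 0.000221). *Uhrf1*, which brings DNMT1 to replicated DNA, was at 51.3 and 45.3 FPKM in Aal and 112, 112 and 110.1 FPKM in A1 (log2 fold change 1.19, SE 0.07, limma adjusted p = 0.000127). *Hells*, the remodeler that opens nucleosomes for methylation, was at 133 and 110.1 FPKM in Aal and 259, 274 and 280.0 FPKM in A1 (log2 fold change 1.15, SE 0.09, limma adjusted p = 0.000245). The 3 A1 libraries were nearly equal for *Uhrf1* and *Hells*. *Dnmt1*, the maintenance methyltransferase, was just under the fold threshold, at 78.3 and 68.9 FPKM in Aal and 146, 141 and 133 FPKM in A1 (log2 fold change 0.92, SE 0.08, limma adjusted p = 0.000263). Of 24 histone methyltransferases and demethylases, 18 were below 0, 6 passed the p threshold as lower and 1 was called, *Phf2*, a histone H3 lysine 9 demethylase, at 7.43 and 9.04 FPKM in Aal and 3.73, 2.64 and 3.17 FPKM in A1 (log2 fold change -1.15, with an adjusted p of 0.0219 without Aal-2 and just over 0.01 without Aal-1). *H2afy2*, a macroH2A variant of inactive chromatin, fell with values of 54.8 and 56.4 FPKM in Aal and 22.8, 20.6 and 18.3 FPKM in A1 (log2 fold change -1.40, SE 0.10, limma adjusted p = 0.000173). *Nasp*, a chaperone that supplies histone H3 and H4 during replication, was at 96.03 and 62.8 FPKM in Aal and 199, 195 and 205 FPKM in A1 (log2 fold change 1.35, SE 0.16, limma adjusted p = 0.000645), with a wide gap between the Aal libraries. *Hmgn1*, a nucleosome-binding protein, passed the p threshold at 0.95.

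Genes of meiotic prophase changed in both directions. Of 30 tested genes of meiotic prophase, 5 were called higher and 1 lower, and the median was 0.06. The shares were 16.7% higher and 3.33% lower, beside 4.19% and 4.97% of all genes. *Mei1*, needed for double-strand breaks, was at 5.39 and 3.95 FPKM in Aal and 12.2, 13.3 and 13.3 FPKM in A1 (log2 fold change 1.31, SE 0.13, limma adjusted p = 0.000388). *Ccdc36*, a partner of the break machinery, was at 8.37 and 7.56 FPKM in Aal and 17.9, 19.03 and 18.9 FPKM in A1 (log2 fold change 1.13, SE 0.09, limma adjusted p = 0.000219). *Syce2*, a central element protein of the synaptonemal complex, was at 51.1 and 40.2 FPKM in Aal and 99.3, 101 and 89.2 FPKM in A1 (log2 fold change 1.07, SE 0.11, limma adjusted p = 0.000392). *Rec8*, the meiotic cohesin, and *Dmc1*, the meiotic recombinase, were the others called higher (1.37 and 1.28). *Spo11*, which makes the breaks, was at 12.5 and 12.2 FPKM in Aal and 7.10, 3.98 and 4.02 FPKM in A1 (log2 fold change -1.18, SE 0.22, limma adjusted p = 0.00432), the opposite direction, with adjusted p values of 0.012, 0.0451 and 0.0486 without A1-2, Aal-1 and Aal-2. *Syce2* was at 0.91 without Aal-2. *Dazl*, a germ cell RNA-binding protein and the most abundant member, had a log2 fold change of 0.26 (limma adjusted p = 0.034) and was not called. Without A1-3 the list held 8 calls.

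Transcription factor genes changed in both directions. The list of KLF, SP, ETS, GATA and DMRT genes also holds *Glis3* and *Zfpm1*, given below, which belong to none of these families. Among 26 KLF, SP, ETS, GATA and DMRT family genes, 8 were called lower and 2 higher, which was 5 lower and 1 higher without Aal-2. Among 23 SOX, forkhead and T-box genes 5 were called lower and 3 higher, which was 2 lower and 3 higher without Aal-2. Of 18 bHLH, MYC and ID genes 2 were called higher and 2 lower (2 higher and 0 lower by limma without Aal-2). Of all tested genes 4.19% were called higher and 4.97% lower. *Sall1*, a zinc finger repressor of progenitor cells, was at 57.2 and 64.3 FPKM in Aal and 16.8, 15.9 and 15.1 FPKM in A1 (log2 fold change -1.87, SE 0.08, limma adjusted p = 6.03e-05). *Glis3*, a zinc finger factor of undifferentiated germ cells, was at 58.9 and 65.2 FPKM in Aal and 18.5, 9.97 and 10.8 FPKM in A1 (log2 fold change -2.21, SE 0.23, limma adjusted p = 0.000433), with A1-1 the highest of the A1 libraries. *Sox10*, known from the neural crest, was at 16.2 and 18.5 FPKM in Aal and 6.25, 4.47 and 4.42 FPKM in A1 (log2 fold change -1.61, SE 0.15, limma adjusted p = 0.000337). Opposite to these, *Elf4*, an ETS factor, was at 23.98 and 27.5 FPKM in Aal and 51.4, 69.99 and 74.1 FPKM in A1 (log2 fold change 1.29, SE 0.15, limma adjusted p = 0.000677). *Zfpm1*, the GATA cofactor FOG1, was at 2.15 and 2.13 FPKM in Aal and 7.62, 10.4 and 9.82 FPKM in A1 (log2 fold change 1.70, SE 0.15, limma adjusted p = 0.000287). Of the homeobox genes, *Irx2* (-1.85), *Lhx1* (-1.84) and *Pou3f2* (-1.58) fell, and *Hoxb13* was at 1.64 and 1.49 FPKM in Aal and 3.96, 6.19 and 5.38 FPKM in A1 (log2 fold change 1.25). The anterior *Hoxb2*, *Hoxb3* and *Hoxb4*, which are known RA targets in the embryonic hindbrain, passed the p threshold in the other direction, under the fold threshold (-0.78, -0.93 and -0.77). *Ascl2*, a bHLH factor of intestinal stem cells, was at 5.42 and 5.06 FPKM in Aal and 15.6, 18.9 and 16.4 FPKM in A1 (log2 fold change 1.52, SE 0.11, limma adjusted p = 0.000173). Of 17 nuclear receptors and cofactors, 3 were called lower and 2 higher. *Nr6a1*, the germ cell nuclear factor GCNF, was at 8.83 and 8.68 FPKM in Aal and 22.1, 22.9 and 23.03 FPKM in A1 (log2 fold change 1.28, SE 0.07, limma adjusted p = 0.000127). The estrogen receptor *Esr1* was at 3.02 and 3.12 FPKM in Aal and 0.417, 0.301 and 0.450 FPKM in A1 (log2 fold change -1.55, SE 0.13, limma adjusted p = 0.000245). Without Aal-2 the adjusted p was 0.0126 for *Glis3*, 0.0114 for *Elf4* and 0.024 for *Hoxb13*, and without Aal-1 it was 0.0139 for *Elf4* and 0.0169 for *Hoxb13*.

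Of the GDNF pathway, *Ret*, *Etv5* and *Dusp6* were lower in A1. Of 27 genes of GDNF, FGF and ERK feedback, 6 were called lower and 2 higher, with 2 lower and 2 higher without Aal-2 and 5 lower and 4 higher without A1-3. The median of the list was 0.17, with 17 of the 27 above 0, beside 2493 of all 4632 genes tested. Of the 27, 7 passed the p threshold as higher and 6 as lower. *Ret*, the receptor tyrosine kinase for GDNF, was at 78.7 and 86.5 FPKM in Aal and 30.1, 18.03 and 16.5 FPKM in A1 (log2 fold change -1.94, SE 0.23, limma adjusted p = 0.000654). *Etv5*, an ETS factor induced by GDNF and FGF, was at 39.6 and 49.997 FPKM in Aal and 17.1, 11.4 and 9.96 FPKM in A1 (log2 fold change -1.75, SE 0.21, limma adjusted p = 0.0007). *Dusp6*, the ERK phosphatase that ERK itself induces, was at 34.5 and 36.5 FPKM in Aal and 13.2, 7.91 and 9.88 FPKM in A1 (log2 fold change -1.71, SE 0.18, limma adjusted p = 0.000429). All A1 libraries were below both Aal libraries, and A1-1 was the highest of the 3 for each. *Dusp9*, another ERK phosphatase, went the other way, at 14.7 and 16.1 FPKM in Aal and 44.4, 53.9 and 49.5 FPKM in A1 (log2 fold change 1.61, SE 0.09, limma adjusted p = 0.000127). The count was 5 without Aal-1, where the adjusted p of *Ret* was 0.0118, and 4 without Aal-2, where it was 0.0173 for *Ret*, 0.0177 for *Etv5* and 0.0121 for *Dusp6*, with log2 fold changes still at -1.87, -1.59 and -1.68.

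Cell contact signals changed in both directions. Guidance cue and Eph genes were called higher for 16.7% and lower for 8.33%, beside 4.19% and 4.97% of all genes. Of 24 guidance cue and Eph genes, 4 were called higher and 2 lower, and the count was 8 without A1-1 and 6 when any other library was left out. *Ephb4*, a receptor for ephrin-B2, was at 4.42 and 3.39 FPKM in Aal and 20.2, 25.2 and 23.8 FPKM in A1 (log2 fold change 2.30, SE 0.13, limma adjusted p = 0.000127). *Dpysl3* and *Dpysl5*, collapsin response mediators that act on microtubules, had log2 fold changes of 1.42 and 1.25. *Slit1*, a repulsive ligand of the ROBO receptors, was at 3.76 and 5.98 FPKM in Aal and 0.492, 0.797 and 0.616 FPKM in A1 (log2 fold change -1.82, SE 0.19, limma adjusted p = 0.000433). *Dscaml1*, an adhesion molecule of neurons, fell with -1.50. *Dll1*, a Notch ligand, was at 1.61 and 2.16 FPKM in Aal and 6.35, 8.30 and 6.96 FPKM in A1 (log2 fold change 1.51, SE 0.15, limma adjusted p = 0.000416). *Tcf7l2*, the main nuclear effector of WNT in many tissues, was at 16.2 and 17.7 FPKM in Aal and 4.12, 3.02 and 3.21 FPKM in A1 (log2 fold change -2.02, SE 0.14, limma adjusted p = 0.000173) and was the only 1 of 20 WNT genes called in the fit of all 5 libraries (2 were without A1-1 or without A1-3). Of 33 cytokine and interferon genes, 5 were called lower and 2 higher (15.2% and 6.06%, beside 4.97% and 4.19% of all genes). Of the 33, 24 were below 0. *Ifitm1*, an interferon-induced membrane protein of early germ cells, was at 10.1 and 12.4 FPKM in Aal and 1.34, 0.392 and 1.95 FPKM in A1 (log2 fold change -2.52, SE 0.30, limma adjusted p = 0.000694). *Gbp3*, an interferon-induced GTPase, was at 9.36 and 9.93 FPKM in Aal and 1.86, 1.74 and 2.26 FPKM in A1 (log2 fold change -1.85, SE 0.13, limma adjusted p = 0.000173). The interferon count was 3 without Aal-1 and 1 without Aal-2, where *Ifitm1* had adjusted p values of 0.0111 and 0.0178.

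Of 25 tested genes on the list of voltage-gated channels, 9 were called lower and 1 higher, a share of 36.0% lower beside 4.97% of all genes. The median of the list was -0.14. The list is wider than its name, since it also holds regulatory subunits and *Trpm7*, which is not voltage-gated. *Cacna1a*, the pore of P/Q-type calcium channels, was at 14.6 and 17.3 FPKM in Aal and 6.76, 6.39 and 5.65 FPKM in A1 (log2 fold change -1.22, SE 0.12, limma adjusted p = 0.000345). *Kcnh3*, a potassium channel of the forebrain, was at 5.71 and 5.56 FPKM in Aal and 1.32, 1.00 and 1.08 FPKM in A1 (log2 fold change -1.64, SE 0.13, limma adjusted p = 0.000245), and *Scn11a*, a sodium channel of sensory neurons that neighbours *Scn10a* in the genome, at 2.65 and 2.78 FPKM in Aal and 0.425, 0.169 and 0.385 FPKM in A1 (log2 fold change -1.49, SE 0.14, limma adjusted p = 0.000326). On mm9 *Scn10a* is at chromosome 9, 119517584 to 119603478 and *Scn11a* at chromosome 9, 119662881 to 119734574. *Kcnip2*, a regulatory subunit of Kv4 potassium channels, was at 4.77 and 4.04 FPKM in Aal and 1.17, 1.31 and 1.43 FPKM in A1 (log2 fold change -1.23, SE 0.13, limma adjusted p = 0.000484), whereas its paralog *Kcnip3* was at 0.360 and 0.234 FPKM in Aal and 5.42, 3.15 and 4.55 FPKM in A1 (log2 fold change 2.03, SE 0.20, limma adjusted p = 0.000361) and was the member called higher. The abundant *Trpm7*, a magnesium channel, was at 34.9 and 30.1 FPKM in Aal and 27.8, 29.2 and 30.7 FPKM in A1 (limma adjusted p = 0.218). The count was 10 without A1-3, 7 without A1-2, 6 without Aal-1 and 6 without Aal-2.

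Of 35 neuronal cytoskeleton and synaptic genes, 4 were called higher and 2 lower (11.4% and 5.71%, beside 4.19% and 4.97% of all genes). *Nefm*, a neurofilament subunit, was at 15.6 and 12.996 FPKM in Aal and 2.94, 1.70 and 1.54 FPKM in A1 (log2 fold change -2.34, SE 0.21, limma adjusted p = 0.000287). *Shank2*, a scaffold of synapses, was at 2.49 and 2.26 FPKM in Aal and 7.95, 7.49 and 7.38 FPKM in A1 (log2 fold change 1.35, SE 0.11, limma adjusted p = 0.000263). *Tubb3*, the neuronal beta-tubulin, was at 2.96 and 2.38 FPKM in Aal and 9.51, 9.48 and 19.8 FPKM in A1 (log2 fold change 1.85, SE 0.30, limma adjusted p = 0.00246). Its highest value was in A1-3, and the log2 fold change without that library was 1.52 (adjusted p 4.49e-05), against adjusted p values of 0.0247 and 0.0399 without Aal-1 and Aal-2. *Vamp2*, a synaptic vesicle protein, had a log2 fold change of 1.01 and of 0.87 without A1-3, under the threshold, and adjusted p values of 0.0235 and 0.0412 without Aal-1 and Aal-2. The list held 5 calls without A1-3, 3 without Aal-1 and 2 without Aal-2. In adhesion, 3 of 19 cadherin and junction genes were called, all lower (15.8%, beside 4.97% of all genes), among them *Cntn6* (-2.02) and *Pcdh1* (-1.39). *Nid1*, a basement membrane protein, was at 17.5 and 19.99 FPKM in Aal and 7.55, 5.80 and 9.67 FPKM in A1 (log2 fold change -1.21, with an adjusted p of 0.0194 and 0.0347 without Aal-1 and Aal-2). *Epcam*, an epithelial adhesion molecule, passed the p threshold at 0.87. *Sparc*, a matrix protein of stromal cells, was at 8.98 and 5.38 FPKM in Aal and 9.63, 9.98 and 75.2 FPKM in A1, with a log2 fold change of 1.38 (0.44 without A1-3), and it was not called.

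In energy metabolism, several glycolysis genes were lower in A1. Of 17 glycolysis and lactate genes, 4 were called lower and 1 higher, with a median of -0.49. The shares were 23.5% lower and 5.88% higher, beside 4.97% and 4.19% of all genes. *Ldha*, the lactate dehydrogenase subunit of most tissues, was at 16.9 and 19.8 FPKM in Aal and 6.24, 5.99 and 6.86 FPKM in A1 (log2 fold change -1.39, SE 0.11, limma adjusted p = 0.00024). *Slc2a3*, the glucose transporter GLUT3, was at 12.03 and 13.3 FPKM in Aal and 6.27, 4.51 and 4.95 FPKM in A1 (log2 fold change -1.14, SE 0.14, limma adjusted p = 0.000845). *Pdk1*, the kinase that turns off pyruvate dehydrogenase, was at 21.9 and 23.3 FPKM in Aal and 11.2, 9.50 and 10.6 FPKM in A1 (log2 fold change -1.05, SE 0.09, limma adjusted p = 0.000287). *Pkm*, pyruvate kinase, passed the p threshold at -0.71. In the other direction, *Aldoa*, aldolase A, was at 91.6 and 92.6 FPKM in Aal and 135, 168 and 160.2 FPKM in A1 (log2 fold change 0.73, SE 0.10, limma adjusted p = 0.00107), under the fold threshold, and *Gbe1*, which branches glycogen, rose with 1.26. *Txnip*, which restrains glucose uptake and thioredoxin, was at 294 and 298 FPKM in Aal and 129, 118 and 129 FPKM in A1 (log2 fold change -1.23, SE 0.07, limma adjusted p = 0.000127). *Gpx4*, the peroxidase that protects membranes from lipid oxidation, was at 42.6 and 41.4 FPKM in Aal and 92.03, 98.6 and 91.3 FPKM in A1 (log2 fold change 1.14, SE 0.06, limma adjusted p = 0.000127). The glycolysis count was 3 without either Aal library. There *Slc2a3* had adjusted p values of 0.0113 and 0.0189 and *Gbe1* of 0.0361 and 0.0196, and *Pdk1* was at -0.99 without A1-2. None of 14 tricarboxylic acid cycle, 15 oxidative phosphorylation and 18 mitochondrial ribosome genes was called by limma. Of the oxidative phosphorylation genes 13 were above 0 and 4 passed the p threshold as higher, with a median of 0.25, and *Cox5b*, a subunit of cytochrome c oxidase, was at 131 and 129.9 FPKM in Aal and 192, 225 and 197 FPKM in A1 (log2 fold change 0.64, SE 0.08, limma adjusted p = 0.000897). In lipid metabolism 3 of 31 were called, all higher (9.68%, beside 9.15% of all genes), and 2 without A1-3. *Fabp5*, a fatty acid carrier that also binds RA, was at 2.56 and 2.93 FPKM in Aal and 8.11, 9.87 and 12.7 FPKM in A1 (log2 fold change 1.57, SE 0.18, limma adjusted p = 0.000591), with adjusted p values of 0.0114 and 0.0112 without Aal-1 and Aal-2, where the list held 1 and 0 calls by limma.

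Most ribosomal protein transcripts lay lower in A1 and most RNA-processing transcripts slightly higher, with few calls in either list. Of 30 cytosolic ribosomal protein genes, 27 were below 0 and 17 passed the p threshold as lower, with a median of -0.61, but only 1 was called (2 without Aal-1). That gene was *Rpl22l1*, a paralog of the ribosomal protein RPL22 with its own regulatory roles, at 130.2 and 121 FPKM in Aal and 50.7, 50.2 and 55.8 FPKM in A1 (log2 fold change -1.25, SE 0.07, limma adjusted p = 0.000127). *Rpl17* was at 1295 and 1120.4 FPKM in Aal and 755, 759 and 763 FPKM in A1 (log2 fold change -0.67, SE 0.10, limma adjusted p = 0.00216). *Rpl35* was at 1164 and 1207 FPKM in Aal and 817, 698 and 633 FPKM in A1 (log2 fold change -0.73, SE 0.13, limma adjusted p = 0.0034). The elongation factor *Eef2* was at 1334 and 1371 FPKM in Aal and 842, 782 and 689.8 FPKM in A1 (log2 fold change -0.81, SE 0.12, limma adjusted p = 0.00152). *Eif1ax*, an initiation factor, rose from the translation list (1.13, and 0.95 without Aal-2). Ribosomal protein genes have many processed copies in the genome, so their reads are uncertain. The median of the cytosolic ribosomal proteins was -0.56 without A1-3 and -0.254 with quantile normalization, which gives every library the same distribution, and there 12 passed the p threshold as lower. Of the genes that assemble ribosomes, 32 of 43 were above 0, with a median of 0.13 (0.035 with quantile normalization) and 0 calls in this limma fit. Of 43 splicing and processing genes 38 were above 0, with a median of 0.22 (0.115 with quantile normalization), and 9 passed the p threshold as higher. The only call in this list was *Mbnl2*, a regulator of alternative splicing, at 38.3 and 36.7 FPKM in Aal and 9.87, 10.03 and 10.6 FPKM in A1 (log2 fold change -1.79, SE 0.07, limma adjusted p = 6.03e-05).

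Other lists held a few calls each. In the proteasome and ubiquitin lists *Psmd7*, a lid subunit of the proteasome, was at 131 and 125 FPKM in Aal and 64.4, 57.95 and 64.2 FPKM in A1 (log2 fold change -1.03, SE 0.07, limma adjusted p = 0.000173; -0.99 without A1-2), while *Psmb1* and *Psmc5* had log2 fold changes of 0.24 and 0.22 that were not called. Among chaperones, *Dnajc9*, a co-chaperone that also handles histones, was at 21.3 and 15.1 FPKM in Aal and 57.3, 58.99 and 59.3 FPKM in A1 (log2 fold change 1.65, SE 0.13, limma adjusted p = 0.000235). In autophagy, *Gabarapl1*, which tags autophagosomes, was at 43.6 and 42.7 FPKM in Aal and 18.9, 19.9 and 21.7 FPKM in A1 (log2 fold change -1.06, SE 0.08, limma adjusted p = 0.000175). *Atg9b*, an autophagy lipid scramblase, was at 0.860 and 0.663 FPKM in Aal and 3.66, 5.26 and 4.50 FPKM in A1 (log2 fold change 1.63, SE 0.16, limma adjusted p = 0.000375). Among actin genes, *Coro2b*, a coronin, was at 0.298 and 0.474 FPKM in Aal and 4.14, 5.29 and 5.00 FPKM in A1 (log2 fold change 2.07, SE 0.15, limma adjusted p = 0.000173). *Arpc1b*, a subunit of the ARP2/3 complex, was at 18.3 and 14.97 FPKM in Aal and 38.2, 44.1 and 41.3 FPKM in A1 (log2 fold change 1.26, SE 0.10, limma adjusted p = 0.000245). *Actn2*, an alpha-actinin, was at 36.2 and 40.6 FPKM in Aal and 11.7, 10.05 and 9.57 FPKM in A1 (log2 fold change -1.79, SE 0.10, limma adjusted p = 0.000127). In the apoptosis and p53 list 3 of 31 were called, all higher (9.68%, beside 9.15% of all genes), including *Bok*, a BCL2 family member, at 1.17 and 1.61 FPKM in Aal and 4.96, 6.25 and 4.25 FPKM in A1 (log2 fold change 1.36, SE 0.18, limma adjusted p = 0.000954). Without Aal-2 that list held 0 calls by limma, with 1 without A1-2 and 1 without Aal-1, and the adjusted p of *Bok* was 0.0112 and 0.0152 without Aal-2 and Aal-1.

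**Figure D4:**
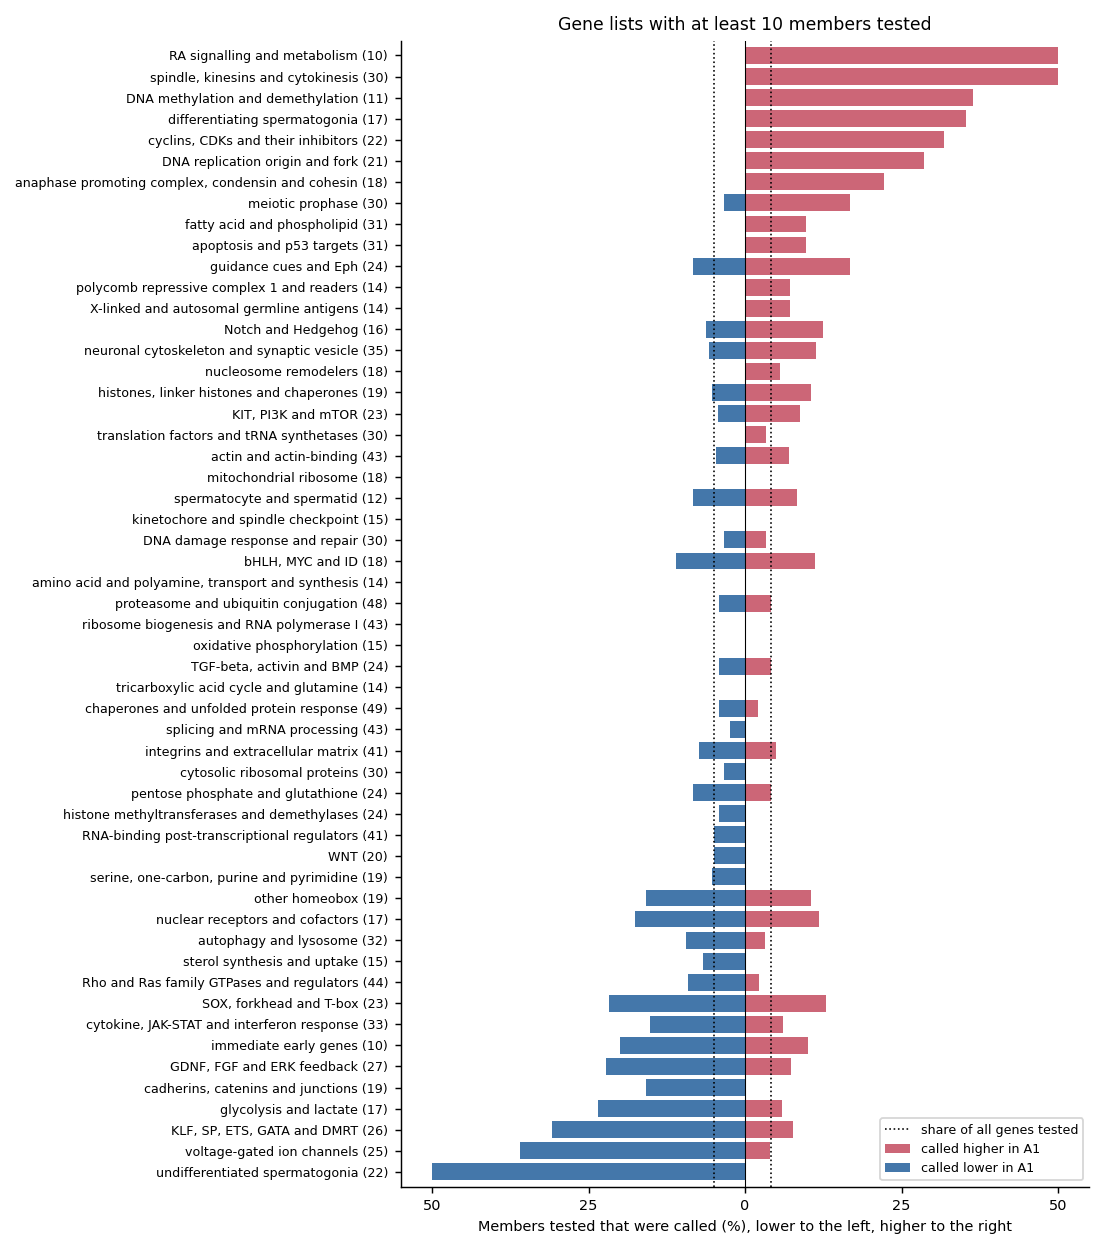
Share of tested members called higher (red, to the right) and lower (blue, to the left) in A1, in percent, with the number tested in parentheses. Each list with at least 10 members tested is drawn, except the lists of somatic markers. Dotted lines are at the shares of all genes tested, 4.19% and 4.97%. The RA signalling and spindle lists reach 50% higher, and the undifferentiated list 50% and the voltage-gated channels 36.0% lower.

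The median log2 fold change of the 15 tested Sertoli cell markers was 1.22, and still 0.64 without A1-3. Of the 36 somatic markers tested, 3 were called (8.33%, beside 9.15% of all genes), and 2 of these, *Trf* and *Fli1*, were lower in A1. The marker called higher, *Fabp3*, a fatty acid carrier on the Leydig list, was at 5.11 and 3.11 FPKM in Aal and 8.63, 9.32 and 10.4 FPKM in A1 and had a log2 fold change of 1.06, or 0.99 without A1-3, and it was also lost without A1-2 and without Aal-2. No gene called higher was more than 3 times higher in A1-3 than in the other A1 libraries, and 4 were more than 1.5 times higher. With that 3-fold excess, 51 tested genes were above 0 and not called. One was *Clu*, at 22.8 and 17.1 FPKM in Aal and 32.9, 30.1 and 220.2 FPKM in A1 (log2 fold change 1.57, SE 0.78, limma adjusted p = 0.153, and 0.65 without A1-3). Another was *Cst12*, at 6.14 and 1.68 FPKM in Aal and 6.09, 8.38 and 59.2 FPKM in A1 (log2 fold change 1.86, SE 0.89, limma adjusted p = 0.137, and 0.90 without A1-3). So wide a spread within A1 raises the SE and works against a call, so these counts are not a separate check on A1-3. *Dtx1*, a Notch regulator, was the lost call with the largest fold, at 1.79 and 1.24 FPKM in Aal and 4.08, 3.82 and 6.35 FPKM in A1 (log2 fold change 1.17, SE 0.21, limma adjusted p = 0.0041; 0.98 without A1-3), and its adjusted p was 0.0225 without Aal-1 and 0.0545 without Aal-2. *Pip5k1b*, *Ube2ql1*, *Sowahc*, *Cygb*, *Efhd2* and *Pcnx2* were lost in the same way, with log2 fold changes of 0.97, -0.95, 0.95, 0.97, 0.99 and -0.98 without A1-3, and were also lost without either Aal library. *Pip5k1b* and *Ube2ql1* were lost without A1-2 as well.

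**Figure D5:**
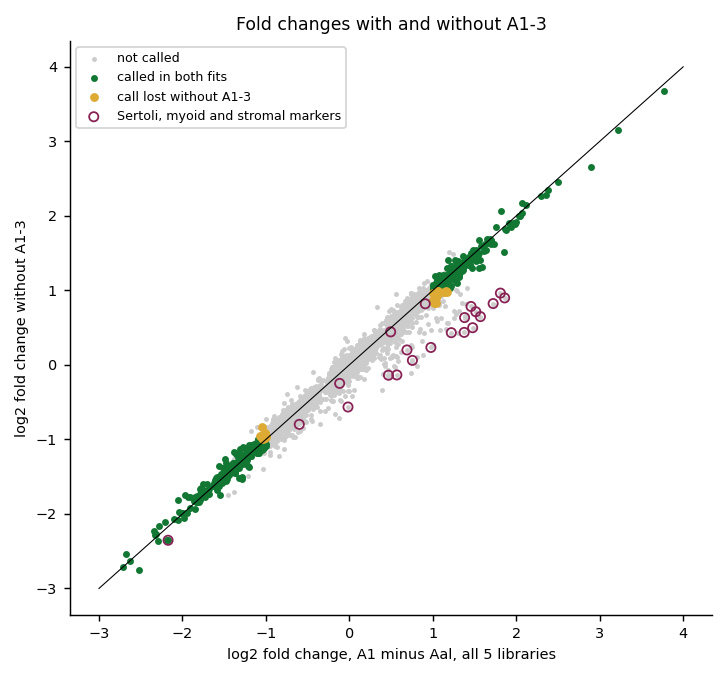
Log2 fold change (A1 minus Aal, of FPKM + 1) of each tested gene with all 5 libraries (x axis) and without A1-3 (y axis), with the line of equality. The 392 genes called in both fits (green) follow the line, the 32 lost calls (yellow) sit at the fold threshold, and the Sertoli, myoid and stromal markers (open circles) lie mostly below the line.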

How the data were processed

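Germ cells from CD1:Uchl1-eGFP testes were sorted by FACS in 2 (Aal) or 3 (A1) independent preparations, and TruSeq Stranded mRNA libraries were sequenced. Per the submitters' processing notes, reads were trimmed with cutadapt 1.9, aligned to mm9 with STAR 2.5.2b and counted with featureCounts. The authors deposited FPKM values. The annotation, the strand setting and the step to FPKM are not given in the sources used here. Reads were recovered from FPKM steps for 100.0% of 5736 genes (tolerance 0.02 reads). The table holds part of each transcriptome, and *Sycp3*, *Dmrt1*, *Tcl1*, *Kit*, *Zbtb16* and *Stra8* were not analysed here.

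Values were tested as log2(FPKM + 1), a scale that understates the change of low genes, with limma 3.58.1 in R 4.3.3 (mean-variance trend, two-sided). Genes at 1 FPKM in at least 2 of 5 libraries were tested, with Benjamini-Hochberg adjustment over all of them. On simulated data for this comparison, 97% of 200 genes changed 4-fold and 1 unchanged gene were called. Nothing in the sources says that a replicate number links samples, and p-values measure the spread between preparations. With an Aal library left out, that spread is within A1 alone. The members and the 64 gene lists were chosen with earlier results of these data known.

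Named are the 15 called genes with the largest rise and the 15 with the largest fall that do not overlap between groups, reach a mean of 5 FPKM in the higher group and stay called without A1-3, then up to 5 called and 3 abundant uncalled members of each list, the RA list, somatic markers and calls lost without A1-3. *Cacna1a*, *Dusp9*, *Elf4*, *Mcm2*, *Syce2* and *Vamp2* were chosen after their values were seen. Some genes that met the rule are not reported here. Alternatives were the pseudocount, filters, scaling, p threshold, trend, all 8 libraries, a replicate block, voom on recovered reads, a Sertoli covariate and leaving out each library. Promoters came from RefSeq (GRCm38.p6), matched by symbol, and no coordinate was moved between builds.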

Additional observations from a re-analysis of the deposited data

How the results depend on the processing

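Of the 424 calls (194 higher, 230 lower), the count was 670 (320 higher, 350 lower) with a pseudocount of 0.1 and 731 (331 higher, 400 lower) with voom on recovered reads, and 422 of the 424 were among them in each. With a minimum of 5 FPKM, where fewer genes were tested, 151 were lower. Leaving out 1 library gave from 211 to 474 calls, with 95 to 220 higher and 116 to 254 lower. The lowest counts were without Aal-2. The count lay between 411 and 453 under the other settings except the minimum of 5 FPKM (298). With the Sertoli covariate it was 434, of which 372 were shared with the 424. No call changed direction under any setting. In the fits that left out a library this could not happen, since the groups did not overlap. With the replicate block 444 genes were called, 392 of them shared. Number 3 occurs only in A1 here, so the block takes up A1-3 whole. Its fold changes are those of the fit without A1-3, and it is not a separate check. Deviations from the group means of samples with the same number had r = -0.15 and 0.007. With 2 Aal libraries their deviations mirror each other, so these are not separate checks, and the labels do not tie the numbers to a shared preparation. Among the fits that left out a library the count moved most without Aal-2, and the cause of these shifts was not tested. Among named genes that were not called, the log2 fold change changed sign for *Anapc2* (-0.084) with quantile normalization, and for *Uchl1* it ran from -0.099 to 0.323 when 1 library was left out. No sample could be tested as an outlier in groups of 2 and 3.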

Other observations

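Germ cell state genes showed how far the markers moved in the first day. *Nanos3*, an RNA-binding repressor that protects early germ cells, was at 91.4 and 112 FPKM in Aal and 21.7, 12.6 and 12.2 FPKM in A1 (log2 fold change -2.67, SE 0.23, limma adjusted p = 0.000286), and *Upp1*, a uridine phosphorylase, at 70.4 and 83.2 FPKM in Aal and 22.4, 15.7 and 16.0005 FPKM in A1 (log2 fold change -2.04, SE 0.16, limma adjusted p = 0.000227). A1-1 was the highest of the A1 libraries for both, and no A1 library reached an Aal level. Among markers of differentiating cells, *Prss50*, a testis protease, was at 2.33 and 1.51 FPKM in Aal and 16.1, 7.65 and 6.13 FPKM in A1 (log2 fold change 1.82), highest in A1-1, with adjusted p values of 0.0341 and 0.0711 without Aal-1 and Aal-2, and *Sohlh2*, a bHLH factor of spermatogonia, at 32.7 and 34.9 FPKM in Aal and 65.8, 81.6 and 79.9 FPKM in A1 (log2 fold change 1.14). Of 17 tested markers of differentiating spermatogonia, 6 were called, all higher (35.3%, beside 4.19% of all genes), and 11 were not.

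Other metabolic genes changed singly. *Abca1*, a cholesterol exporter, had a log2 fold change of -1.04, *Mgst2*, a glutathione transferase of membranes, of -1.83, and *Trib3*, a pseudokinase of the stress response, of -1.22. These single genes keep their calls without any 1 of the 5 libraries.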
